A study of Gallus gallus with 21 samples.

Results

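The retinal ganglion cell genes described here are the 10 rows of the expression table whose gene symbol is RBPMS, RBPMS2, POU4F1, POU4F3, ISL2, NEFL, NEFM, NEFH, SNCG or THY1. They are 10 of the 18631 genes listed. The rows were taken by gene name, and the names were chosen with earlier results of these data known. The 21 libraries are RNA-seq of retina from wild-type White Leghorn chickens that had -10 D lenses fitted at 3 days of age, a treatment that makes the eye grow myopic. There are 7 libraries after 1 day of lens wear, 7 after 3 days and 7 after 6 days, and the labels give the age as postnatal day 3 to 9. Every group wore the lenses, so days of lens wear and age rise together and cannot be told apart, and no eye without a lens enters these comparisons. The labels do not say that the libraries of a day come from separate birds, so the p-values measure the spread between libraries, which may be partly technical.

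Ganglion cells are the output neurons of the retina. They collect signals from bipolar and amacrine cells and send them along axons through the optic nerve to the brain, which in birds means mainly the optic tectum. RBPMS and RBPMS2 are RNA-binding proteins used as markers of the whole ganglion cell class in mammals. POU4F1 (also called BRN3A), POU4F3 (BRN3C) and ISL2 are homeodomain transcription factors of ganglion cell development and subtype identity, known best from the mouse. NEFL, NEFM and NEFH encode the light, medium and heavy neurofilament subunits that fill thick axons, SNCG encodes gamma-synuclein, and THY1 encodes a glycolipid-anchored surface protein. Neurofilament, synuclein and THY1 transcripts also occur in other neurons. In whole retina, fewer ganglion cells and less RNA per ganglion cell cannot be told apart.

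All values are CPM as deposited, that is read counts scaled to a common library total, which are not divided by gene length, so the level of one gene against another has no direct meaning and comparisons are made between days. Depth was estimated from the CPM steps at 30.8 to 49.3 M reads per library, of which 9.94 to 15.3 M fell on the listed genes. Transcripts of the W chromosome, which only hens carry, were present in 4 of 7 libraries of day 1, 1 of 7 of day 3 and 5 of 7 of day 6, so the day 3 libraries differ in this respect from the other two days. Libraries were sorted by 1 W-linked gene, HINTW, at a cut of 10 CPM, so its separation of the 2 kinds is given by the sorting. HINTW read 101 to 147 CPM in the libraries with these transcripts and at most 0.598 CPM in those without. The W-linked level in the fits below is log2(CPM + 1) of HINTW. Retinal marker genes were present on every day, with a summed level of 848 to 1324 CPM for photoreceptor genes and 753 to 962 CPM for amacrine cell genes. The summed level of 7 pigment epithelium genes was 1.53 to 9.07 CPM and that of 7 microglia genes was 4.12 to 8.16 CPM. A further 16 genes used as ganglion cell markers, among them SLC17A6, TUBB3 and ISL1, summed to 408 to 480 CPM.

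Of the 10 genes, 9 passed the filter of a mean of at least 1 CPM over all libraries, set without regard to day, and were tested. Tests used limma on log2(CPM + 1) over 11072 genes with Benjamini-Hochberg adjustment, and a gene was called at an adjusted p under 0.05. Log2 changes below are on that scale, which understates the change of genes near 1 CPM. The row named POU4F3 was not tested. It read 0.0267 to 0.161 CPM on day 1, 0 to 0.195 CPM on day 3 and 0.0235 to 0.242 CPM on day 6, with medians of 0.117, 0.0972 and 0.0735 CPM. These levels correspond to 0 to 10 estimated reads per library, with 2 libraries listed at 0, and the 3 days overlapped throughout. Its identity is also uncertain. The row lies on chromosome 4 (GRCg6a, chr4:11085059-11086605, plus strand) between SPRY3 and LOC107052075, whereas RefSeq's annotation of GRCg7b places POU4F3 on chromosome 13. A second row, POU4F3_1, lies on chromosome 13 (GRCg6a, chr13:18555836-18557955) and held 0 to 2 estimated reads, with 12 libraries listed at 0. POU4F2, the third member of this transcription factor family and no member of the list, held 0 to 12.1 estimated reads. POU4F1 was therefore the one POU4F gene with a level that could be compared between days.

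**Figure D1:**
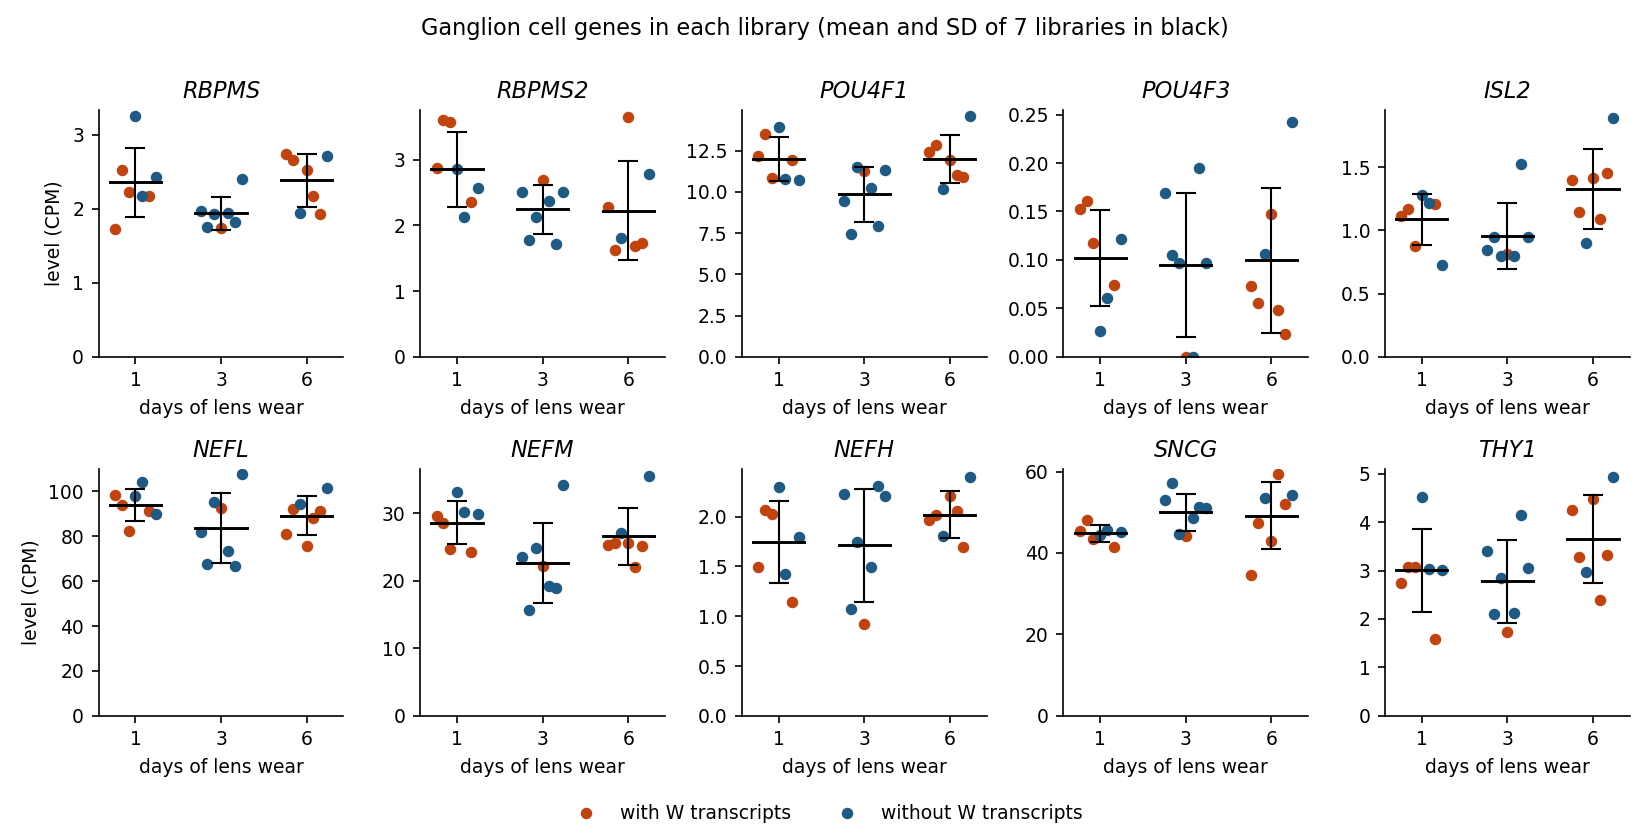
Level of each ganglion cell gene in CPM (vertical axis, linear from 0, a separate scale for each gene) against days of lens wear. Each point is 1 library, coloured by whether W-chromosome transcripts were present, and the black bars give the mean and SD of 7 libraries. The 3 days overlap for every gene, and the POU4F3 row stays under 0.25 CPM.

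The transcription factors POU4F1 and ISL2 were lowest on day 3 and were the only 2 of the 9 tested genes called between any pair of days. POU4F1 (GRCg6a, chr1:154907742-154912214, plus strand) ranged from 10.7 to 13.9 CPM on day 1 with a median of 11.9 CPM. On day 3 it ranged from 7.43 to 11.5 CPM with a median of 10.2 CPM, and on day 6 from 10.2 to 14.6 CPM with a median of 11.9 CPM. All 7 libraries of day 3 lay below the mean of day 1, and all 7 of day 6 lay above the mean of day 3, although the ranges of neighbouring days overlapped. The mean was 11.98 ± 1.33 CPM on day 1, 9.87 ± 1.67 CPM on day 3 and 11.99 ± 1.47 CPM on day 6 (SD, n = 7 each). From day 3 to day 6 POU4F1 rose by 0.27 ± 0.09 (log2, SE), or 1.20-fold, with an adjusted p of 0.0464 from limma. Its difference from day 1 to day 3 was of the same size in the other direction, -0.27 ± 0.09, but the adjusted p was 0.133. Day 6 did not differ from day 1 beyond the spread, with a log2 difference of -0.00051 and a 95% interval from -0.20 to 0.20.

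ISL2, a LIM-homeodomain factor that in the mouse marks ganglion cells projecting to the opposite side of the brain, was near the detection filter. It lies on GRCg6a chr10:3800723-3803736 (minus strand) and overlaps LOC107052134 on the opposite strand. The library kit preserves strand, but the labels do not say whether the counting used it. ISL2 ranged from 0.729 to 1.28 CPM on day 1, from 0.798 to 1.52 CPM on day 3 and from 0.903 to 1.89 CPM on day 6, with medians of 1.17, 0.846 and 1.397 CPM. The values correspond to 29 to 78 estimated reads per library. The days overlapped, and 6 of 7 libraries of day 6 lay above the mean of day 3. From 0.953 ± 0.260 CPM on day 3 to 1.33 ± 0.320 CPM on day 6 (SD, n = 7 each) it rose by 0.25 ± 0.09 (log2, SE), with an adjusted p of 0.0481 from limma. Its difference between days 1 and 3 was -0.10 ± 0.09 (adjusted p = 0.6002), and between days 1 and 6 it was 0.15 ± 0.09 (adjusted p = 0.223).

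These 2 calls, of 9 genes, stand against 22.8% of all 11072 genes called between days 3 and 6 and 19.4% called higher on day 6, so the share of ganglion cell genes called was near the background. The listed genes together held 30.3 to 32.2% of the CPM scale in the libraries of day 3 and 31.7 to 33.3% in those of day 6. With median-of-ratios scaling, which sets the typical gene to no change, the split of all genes called moved from 2143 higher and 381 lower to 946 higher and 872 lower. POU4F1 then differed by 0.19 (adjusted p = 0.184) and ISL2 by 0.21 (adjusted p = 0.0962), and no ganglion cell gene was called, against 16.4% of all genes. With the W-linked level in the fit both calls were lost, at 0.23 for POU4F1 (adjusted p = 0.133) and 0.27 for ISL2 (adjusted p = 0.0784). The POU4F1 call was lost when any 1 of 11 libraries was left out, and the ISL2 call when any 1 of 15 was left out. Without replicate 7 of day 6, the highest library for both, the difference was 0.22 for POU4F1 (adjusted p = 0.0986) and 0.20 for ISL2 (adjusted p = 0.106). Within the libraries without W transcripts, 6 of day 3 and 2 of day 6, the differences were 0.33 for POU4F1 (adjusted p = 0.303) and 0.26 for ISL2 (adjusted p = 0.405). Among the libraries with W transcripts, 1 of day 3 and 5 of day 6, they were 0.06 (adjusted p = 0.841) and 0.34 (adjusted p = 0.207), where the lone day 3 library is assumed to vary like the others.

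RBPMS and RBPMS2, the pan-ganglion cell RNA-binding proteins, took different courses, and neither was called between any pair of days. RBPMS (GRCg6a, chr4:34740148-34745551, minus strand) ranged from 1.73 to 3.25 CPM on day 1, from 1.74 to 2.41 CPM on day 3 and from 1.93 to 2.74 CPM on day 6, with medians of 2.23, 1.93 and 2.53 CPM. Day 3 was the lowest and the tightest of the 3 days, and 6 of its 7 libraries lay below the mean of day 1. The differences in RBPMS were -0.18 ± 0.08 (log2, SE) from day 1 to day 3 with an adjusted p of 0.244 and 0.20 ± 0.08 from day 3 to day 6 with an adjusted p of 0.0818. The second was called when replicate 4 of day 1 or replicate 7 of day 3 was left out, with adjusted p values between 0.0466 and 0.154 over all 21 leave-one-out fits.

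RBPMS2 (GRCg6a, chr10:1554284-1575875, minus strand) ranged from 2.13 to 3.61 CPM on day 1 with a median of 2.85 CPM. It ranged from 1.72 to 2.69 CPM on day 3 and from 1.62 to 3.64 CPM on day 6, with medians of 2.37 and 1.81 CPM. All 7 libraries of day 3 and 6 of 7 of day 6 lay below the mean of day 1, and the exception, replicate 4 of day 6, was the highest of all 21. The means were 2.85 ± 0.569, 2.24 ± 0.377 and 2.22 ± 0.752 CPM (SD, n = 7 each). The difference between days 1 and 6 was -0.27 ± 0.12 (log2, SE; 95% interval -0.52 to -0.02), with an adjusted p of 0.0993. Without replicate 4 of day 6 it was -0.37 with an adjusted p of 0.0175, in a fit that called 2391 of 11070 genes. This was the only 1 of the 21 leave-one-out limma fits to call it, with adjusted p values up to 0.192.

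The day 1 mean of RBPMS2 also differed, without a call, between 2 sets of code numbers in the sample titles. The labels do not give the meaning of these numbers. Each day was split at the largest gap in its own numbers, so the sets are not known to be batches. RBPMS2 averaged 3.23 ± 0.422 CPM in the 4 lower-numbered day 1 libraries and 2.35 ± 0.221 CPM in the 3 higher-numbered ones (SD). The log2 difference was -0.33 with an adjusted p of 0.196 from limma. Against the lower-numbered day 1 libraries alone, day 6 differed by -0.42 (adjusted p = 0.0316), and against the higher-numbered ones alone by -0.08 (adjusted p = 0.734). Of all genes, 8.72% were called between the 2 sets of day 1 libraries, with none of the 9 ganglion cell genes among them. THY1 and NEFH differed there by -0.31 and -0.28 (adjusted p = 0.388 and 0.260). W transcripts were present in replicates 1, 2 and 3 of the lower-numbered set and in replicate 6 of the higher-numbered set. Between the sets of day 3 and between those of day 6, 0% of genes were called.

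None of the neurofilament subunits was called between any pair of days. All 3 had their lowest mean on day 3, and the highest mean was on day 1 for NEFL and NEFM and on day 6 for NEFH. NEFL (GRCg6a, chr22:1089664-1094518, plus strand) and NEFM (chr22:1099224-1103125, minus strand) are neighbours on chromosome 22, and NEFH lies alone on chromosome 15 (chr15:11406616-11412122, minus strand). NEFL, the subunit that nucleates the filament, ranged from 82.4 to 104 CPM on day 1, from 66.6 to 108 CPM on day 3 and from 75.5 to 102 CPM on day 6, with medians of 93.7, 82.0 and 91.2 CPM. Day 3 held both the lowest and the highest library of all 21. Its log2 difference was -0.18 ± 0.09 between days 1 and 3 (adjusted p = 0.313) and 0.11 ± 0.09 between days 3 and 6 (adjusted p = 0.441).

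NEFM, whose long tail domain spaces filaments in the axon, had the lowest raw limma p of the 9 genes between days 1 and 3. It ranged from 24.2 to 33.2 CPM on day 1, from 15.7 to 34.2 CPM on day 3 and from 22.0 to 35.5 CPM on day 6, with medians of 29.6, 22.2 and 25.5 CPM. On day 3, 6 of 7 libraries lay below the day 1 mean, and replicate 7 lay above every day 1 library. The mean was 28.6 ± 3.20 CPM on day 1, 22.7 ± 5.96 CPM on day 3 and 26.6 ± 4.22 CPM on day 6 (SD, n = 7 each). The difference between days 1 and 3 was -0.35 ± 0.12 (log2, SE; 95% interval -0.61 to -0.10) with an adjusted p of 0.130, and that between days 3 and 6 was 0.25 ± 0.12 with an adjusted p of 0.153. Without replicate 7 of day 3 both were called, at -0.46 (adjusted p = 0.0213) and 0.35 (adjusted p = 0.0232). That fit called 302 and 2450 of 11067 genes in these comparisons. Each NEFM difference was called in only 1 of the 21 leave-one-out limma fits, with adjusted p values up to 0.248 and 0.334. Within the libraries without W transcripts the difference between days 1 and 3 was -0.48 (adjusted p = 0.259), and within those with them, where day 3 is 1 library assumed to vary like the others, it was -0.25 (adjusted p = 0.547).

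NEFH, the subunit added late as axons mature, ranged from 1.14 to 2.29 CPM on day 1, from 0.924 to 2.30 CPM on day 3 and from 1.69 to 2.40 CPM on day 6, with medians of 1.80, 1.74 and 2.01 CPM. The 3 days overlapped, all 7 libraries of day 6 lay above the mean log2 level of day 3, and the coefficient of variation was 11.7% on day 6 against 23.6% on day 1 and 33.2% on day 3. Its differences were -0.03 ± 0.12 between days 1 and 3, 0.18 ± 0.12 between days 3 and 6 and 0.15 ± 0.12 between days 1 and 6, with adjusted p values of 0.916, 0.276 and 0.382.

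The CPM ratios of 2 subunits within a library do not depend on the library total. They are not molar ratios, since CPM is not per length, and only their differences between days were compared with exact two-sided permutation tests of 7 against 7 libraries, whose smallest possible p is 0.000583. NEFM as a percentage of NEFL in CPM ranged from 26.5 to 34.0% on day 1, from 23.2 to 31.8% on day 3 and from 25 to 35.0% on day 6. The means were 30.5 ± 2.52%, 26.9 ± 2.96% and 29.9 ± 3.61% (SD, n = 7 each). The difference between days 1 and 3 was -0.18 on the log2 scale, with an exact p of 0.0344 and 0.157 after adjustment over the 9 ratio tests. NEFH as a percentage of NEFM averaged 6.12 ± 1.38% on day 1, 7.70 ± 2.52% on day 3 and 7.68 ± 1.04% on day 6. Between days 1 and 6 the log2 difference was 0.35 (exact p = 0.0350, adjusted p = 0.157). NEFH as a percentage of NEFL averaged 1.88 ± 0.494%, 2.10 ± 0.793% and 2.29 ± 0.356%, and none of the 9 ratio tests passed after adjustment.

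**Figure D2:**
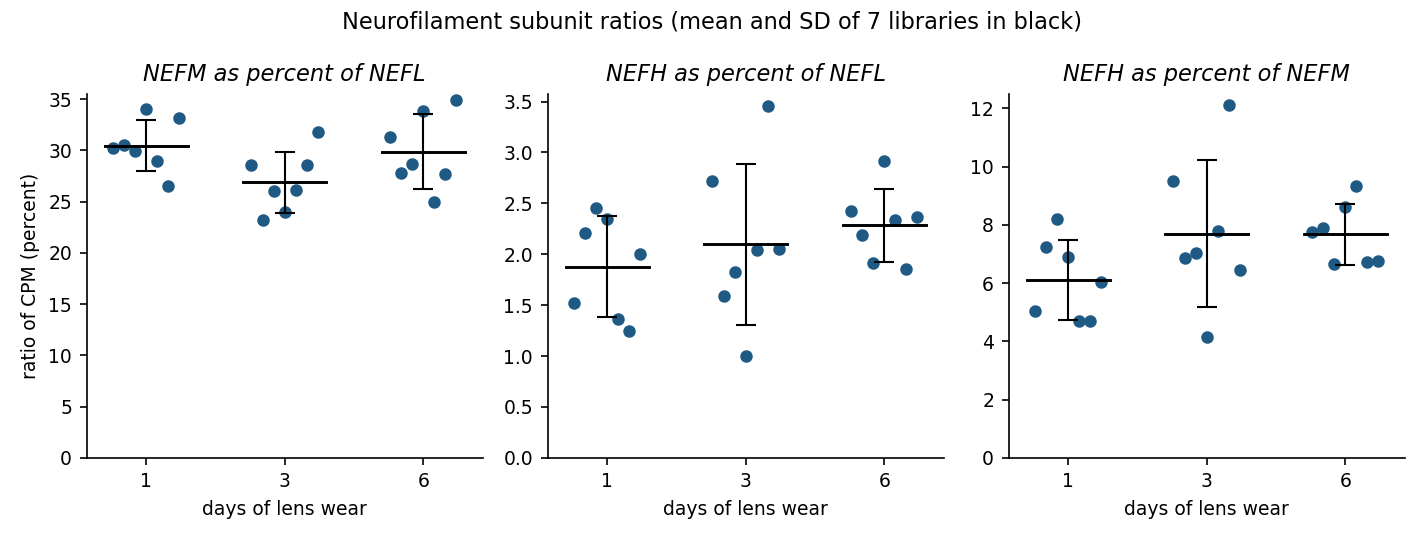
Ratio of the CPM of 2 neurofilament subunits in each library, in percent (vertical axes from 0), against days of lens wear, with the mean and SD of 7 libraries in black. The NEFM to NEFL ratio averages 26.9% on day 3 against 30.5% on day 1, and the spread of both NEFH ratios is widest on day 3.

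SNCG and THY1 had profiles unlike each other, and neither was called between any pair of days. SNCG (GRCg6a, chr6:3321719-3346516, plus strand), which encodes a small presynaptic and axonal protein and overlaps MMRN2 on the opposite strand, ranged from 41.4 to 48.1 CPM on day 1. It ranged from 44.2 to 57.2 CPM on day 3 and from 34.5 to 59.3 CPM on day 6, with medians of 45.2, 50.98 and 52.1 CPM. Its libraries spread more with each day, with a coefficient of variation of 4.63%, 9.22% and 16.9%. SNCG was the one tested gene whose mean was higher on day 3 than on day 1, by 0.15 ± 0.09 (log2, SE), with 5 of 7 day 3 libraries above the day 1 mean and an adjusted p of 0.382.

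THY1 (GRCg6a, chr24:4202440-4206719, plus strand, overlapping LOC112530257 on the opposite strand) had the widest spread within a day of the 9 genes, an SD of 0.31 on the log2 scale against a median of 0.16 over all genes tested. It ranged from 1.58 to 4.51 CPM on day 1, from 1.74 to 4.15 CPM on day 3 and from 2.39 to 4.92 CPM on day 6, with medians of 3.03, 2.85 and 3.31 CPM. The difference between days 3 and 6 was 0.31 ± 0.15 (log2, SE), with 6 of 7 day 6 libraries above the day 3 mean and an adjusted p of 0.147. THY1 was lower by 0.29 ± 0.13 in libraries with W transcripts than in those without (unadjusted p = 0.0392, adjusted p = 0.268). Once the W-linked level entered the fit, the difference between days 3 and 6 was 0.49 with an adjusted p of 0.0389, and 20.9% of all genes were called in that fit. None of the 9 genes was called between libraries with and without W transcripts, against 5.38% of all genes.

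**Figure D3:**
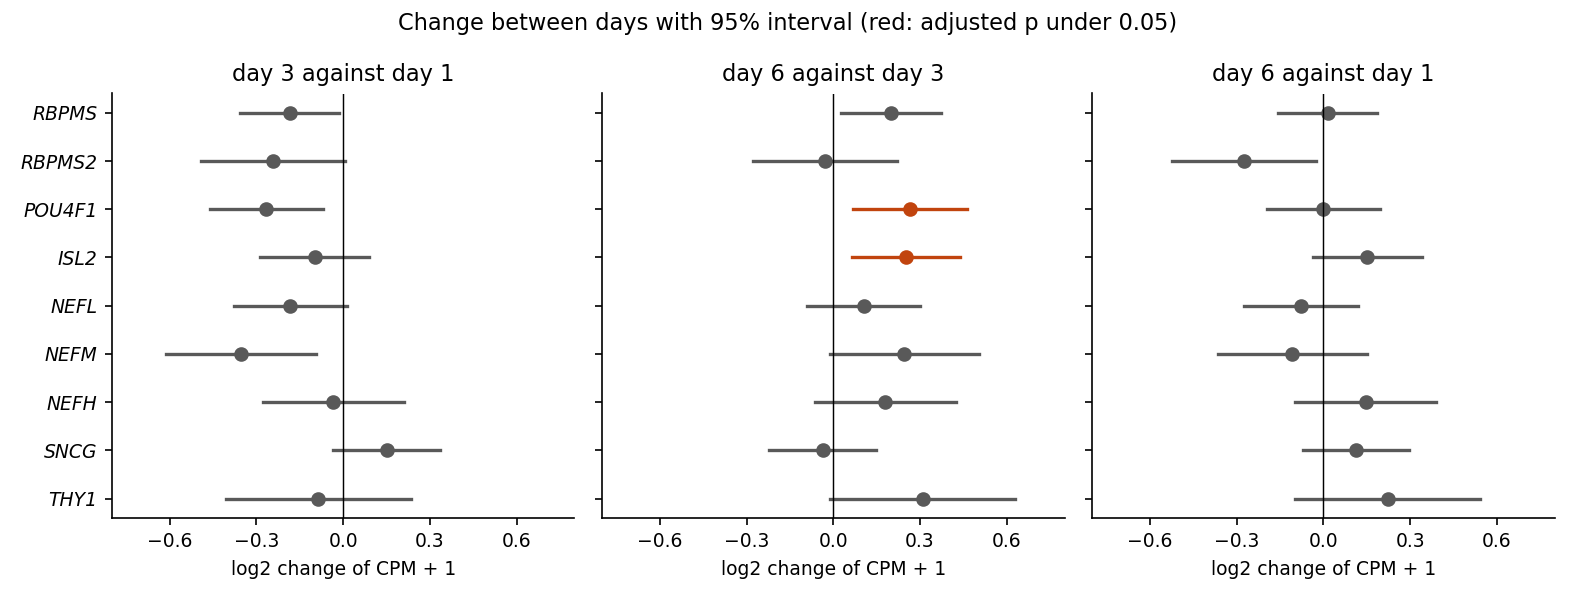
Log2 change of CPM + 1 with its 95% interval from limma (horizontal axis) for the 9 tested ganglion cell genes between each pair of days, with calls at an adjusted p under 0.05 in red. Between days 1 and 3 every gene but SNCG has an estimate below 0, and the 2 calls, POU4F1 at 0.27 and ISL2 at 0.25, are between days 3 and 6.

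Of the 9 tested genes, 7 had their lowest mean on day 3, the exceptions being RBPMS2, lowest on day 6, and SNCG, lowest on day 1. Over all genes tested, 39.4% had their lowest mean on day 3, and 32.2% did after median-of-ratios scaling, with 7 of the 9 ganglion cell genes under both. The 9 genes come from the same libraries, so the count is a description and carries no test. In the comparison of days 1 and 3, limma called 0 of the 9, against 3.31% of all genes. An unadjusted limma p under 0.05 was found for 3 (NEFM, POU4F1 and RBPMS), against 18% of all genes. Exact permutation tests gave an unadjusted p of 0.0210 for SNCG, 0.0221 for POU4F1, 0.0315 for NEFM, 0.0385 for RBPMS2 and 0.0402 for RBPMS. Their p was above 0.05 for ISL2, NEFL, NEFH and THY1. Between days 3 and 6 the permutation p was 0.0239 for RBPMS, 0.0262 for POU4F1 and 0.0268 for ISL2, and above 0.05 for the others. Between days 1 and 6 it was above 0.05 for every gene, the lowest being 0.0816 for RBPMS2. The permutation tests were not run over all genes, so no share stands beside them. The median log2 difference of the 9 between days 1 and 3 was -0.18, beside -0.00058 for all genes. The median from day 3 to day 6 was 0.20, beside 0.081 for all genes. In the comparison of days 1 and 6, limma called 0 of the 9, against 24.3% of all genes. RBPMS2 alone had an unadjusted p under 0.05, 1 of 9 against 37.5% of all genes, and the median was 0.015, beside 0.084. The test over all 3 days called 1 of the 9, POU4F1 (adjusted p = 0.0465), against 29.7% of all genes. limma with an intensity trend and robust variance called 0 of the 9 between days 1 and 3, 0 between days 1 and 6 and 1 between days 3 and 6. Of all 11072 genes that fit called 435, 2739 and 2618 in these comparisons. No gene of the 9 had 2 days without overlap, against 1.54% of all genes for days 1 and 3, 5.76% for days 3 and 6 and 6.2% for days 1 and 6. Differences between days accounted for 35.3% of the variance of POU4F1, 29.4% of that of NEFM and 11.6% of that of NEFH, beside a median of 23.8% over all genes tested.

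Single libraries stood out across several of the 10 genes. Replicate 7 of day 6 had the highest value of its day in 7 genes (POU4F1, the POU4F3 row, ISL2, NEFL, NEFM, NEFH and THY1), and replicate 4 of day 1 in 6 (RBPMS, POU4F1, ISL2, NEFM, NEFH and THY1). Both are without W transcripts. The same libraries had the highest sum of their day for the other ganglion cell genes, 476 and 480 CPM, for photoreceptor genes, 1301 and 1324 CPM, and for Muller glia genes, 1195 and 1179 CPM. They were not the highest of their day for bipolar, amacrine or horizontal cell genes. Replicate 4 of day 1 also had the highest pigment epithelium sum of all 21 libraries, 9.07 CPM. On day 3, replicate 4, the one library of that day with W transcripts, had the lowest value in 5 genes (RBPMS, the POU4F3 row, NEFH, SNCG and THY1). Replicate 6 of that day had the highest ISL2, NEFH and THY1 and the lowest NEFL and RBPMS2, while replicate 7 had the highest RBPMS, NEFL and NEFM. The part of these libraries in the results was not tested beyond leaving each out in turn.

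**Figure D4:**
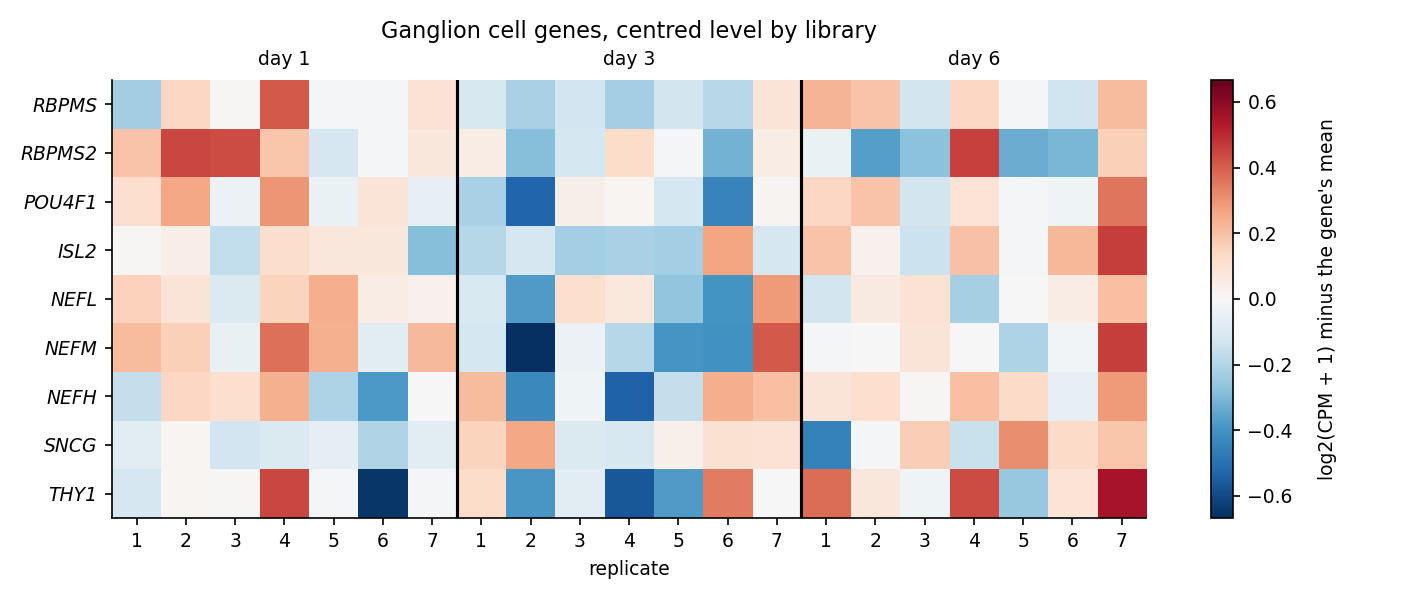
log2(CPM + 1) of the 9 tested ganglion cell genes (rows) in each library (columns, by day and replicate), centred on the gene's mean over 21 libraries. Red is above and blue below the mean. Replicate 4 of day 1 and replicate 7 of day 6 are red in most rows, and replicate 2 of day 3 is blue in 8 of 9.

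Likeness between profiles was measured as the root mean square difference of centred log2(CPM + 1) over the 21 libraries, which share depth and composition effects, so it is a description. The closest pairs among the 9 genes were RBPMS with POU4F1 at 0.153 and NEFL with NEFM at 0.154. NEFH was closer to THY1, at 0.178, than to NEFM at 0.270 or NEFL at 0.287, and the most distant pair was SNCG with THY1 at 0.371. Among 10366 other genes, those nearest to the mean neurofilament profile were TOX2 at 0.106, NCAM1 at 0.112, CBX8 at 0.116, TCEA2 at 0.118 and CCDC149 at 0.122. NCAM1, the neural cell adhesion molecule, averaged 248 ± 24.4 CPM on day 1, 213 ± 14.8 CPM on day 3 and 253 ± 9.04 CPM on day 6 (SD, n = 7 each).

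Of 16 other genes used as ganglion cell markers, 12 were tested. SLC17A6, the vesicular glutamate transporter of ganglion cells, averaged 56.1 ± 6.06 CPM on day 1, 45.5 ± 5.02 CPM on day 3 and 52.5 ± 5.31 CPM on day 6 (SD, n = 7 each). It fell by 0.30 ± 0.08 (log2, SE) between days 1 and 3 (adjusted p = 0.0399). This was the only call of the list there, beside 3.31% of all genes. The adjusted p of SLC17A6 was 0.104 once the W-linked level entered the fit. None of the 12 was called between days 3 and 6, beside 22.8% of all genes. From day 1 to day 6, CHRNB3, a nicotinic receptor subunit picked out after its values were seen, rose by 0.40 ± 0.14 (adjusted p = 0.0459), beside 19.8% of all genes called higher. With median-of-ratios scaling it was not called (adjusted p = 0.121), and EBF3 at -0.22 (adjusted p = 0.0247) and NELL2 at -0.21 (adjusted p = 0.00674) were called lower. In that fit 990 of 11069 genes were called lower between days 1 and 6. The median log2 difference of the 12 was -0.028 between days 1 and 3, 0.041 between days 3 and 6 and -0.094 between days 1 and 6. Over all genes tested these medians were -0.00058, 0.081 and 0.084. With the W-linked level in the fit the median of the 12 between days 1 and 6 was 0.0035, beside 0.087 for all genes.

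Of 12 genes listed as marking ganglion cell subtypes, 8 were tested. OPN4, melanopsin, the photopigment of intrinsically photosensitive ganglion cells, averaged 98.0 ± 9.77, 118 ± 8.70 and 106 ± 12.4 CPM on days 1, 3 and 6 (SD, n = 7 each). It rose by 0.27 ± 0.07 between days 1 and 3 (adjusted p = 0.0420), in the opposite direction to the estimate for 8 of the 9 ganglion cell genes. In birds melanopsin genes are also expressed outside ganglion cells. The chromatin organiser SATB1 rose by 0.19 ± 0.06 between days 3 and 6 (adjusted p = 0.0211), but its difference was 0.12 with an adjusted p of 0.178 after median-of-ratios scaling. The homeobox gene IRX4 differed over the 3 days (adjusted p = 0.0364), at 5.79 ± 0.623, 4.84 ± 0.559 and 5.31 ± 0.235 CPM, with no pair of days called.

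Among 6 tested relatives of the neurofilaments and synucleins, 3 were called between days 1 and 6, beside 24.3% of all genes, and they were 2 lower and 1 higher. INA, alpha-internexin, which co-assembles with the neurofilament subunits, averaged 33.1 ± 4.78, 29.5 ± 2.06 and 27.3 ± 1.98 CPM (SD, n = 7 each) and fell by 0.26 ± 0.08 (adjusted p = 0.0188). Vimentin (VIM), found in Muller glia, fell by 0.23 ± 0.06 (adjusted p = 0.0132). GFAP, the filament of astrocytes and of reactive Muller glia in mammals, rose by 0.81 ± 0.17 (adjusted p = 0.00214), from 2.66 ± 0.838 to 5.44 ± 1.65 CPM. All 3 kept their direction and their call with median-of-ratios scaling. None of the 6 was called between days 1 and 3 or between days 3 and 6 by limma without a covariate. In these comparisons it called 3.31% and 22.8% of all genes. With the W-linked level in the fit, 1 of the 6 was called lower between days 1 and 3, beside 228 of 11072 genes. Between days 3 and 6 that fit called 2 of the 6 higher, beside 1942 of 11072 genes.

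Genes of the axonal cytoskeleton and transport, which many retinal neurons express, gave 5 calls between days 3 and 6. Of 17 tested, 5 rose between days 3 and 6 and none fell (DPYSL3, DPYSL2, MAPT, MAP1B and DCTN1), beside 19.4% of all genes called higher. With median-of-ratios scaling 3 of the 17 were called higher and none lower, beside 8.55% of all genes called higher. DPYSL3, a collapsin response mediator protein of growing axons, averaged 8.34 ± 1.00 CPM on day 1, 6.44 ± 0.484 CPM on day 3 and 9.33 ± 0.619 CPM on day 6 (SD, n = 7 each). It fell by 0.32 ± 0.06 between days 1 and 3 (adjusted p = 0.00640), the only gene of the list called there, beside 3.31% of all genes. Between days 3 and 6 it rose by 0.47 ± 0.06 (adjusted p = 0.000138). Its relative DPYSL2 rose by 0.33 ± 0.07 between days 3 and 6 (adjusted p = 0.00372), and MAPT, which encodes the microtubule-binding protein tau, by 0.40 ± 0.09 (adjusted p = 0.00349). Both kept the call after median-of-ratios scaling, at 0.24 and 0.32, whereas MAP1B (adjusted p = 0.248) and DCTN1 (adjusted p = 0.0685) lost theirs. From day 1 to day 6, 4 of the 17 were called, all higher, beside 19.8% of all genes called higher, namely MAP1A, MAP1B, GAP43 and KIF5C, which are named after their values were seen. With median-of-ratios scaling 1 of them, MAP1A, was called.

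Calls among genes of trophic support, axon injury and myelin stand beside 22.8% of all genes called between days 3 and 6. Between days 1 and 6 the share of all genes was 24.3%. Of 6 tested neurotrophins and receptors, BDNF, which supports ganglion cell survival, fell by 0.24 ± 0.08 between days 1 and 6 (adjusted p = 0.0264). Its receptor gene NTRK2, named after its values were seen, fell by 0.31 ± 0.11 between days 3 and 6 (adjusted p = 0.0412), but with the W-linked level in the fit the difference was -0.041 (adjusted p = 0.588). In that fit 2 of the 6 were called higher between days 3 and 6, beside 1942 of 11072 genes called higher. Between days 1 and 6 it called 1 of the 6 higher and 2 lower, beside 2406 and 584 of 11072 genes. Of 4 tested axon injury and cell death genes, ATF3, a stress-induced transcription factor that marks injured ganglion cells in rodents, averaged 4.35 ± 0.7001, 3.17 ± 0.655 and 4.87 ± 1.18 CPM on days 1, 3 and 6 (SD, n = 7 each). It rose by 0.48 ± 0.12 between days 3 and 6 (adjusted p = 0.00791), and day 6 differed from day 1 by 0.12 (adjusted p = 0.503). None of 5 tested oligodendrocyte and myelin genes was called between any pair of days by limma without a covariate. Between days 1 and 3 it called 3.31% of all genes. With the W-linked level in the fit, 1 of the 5 was called lower between days 1 and 3 and 1 higher between days 3 and 6. Of all 11072 genes that fit called 423 and 2312 in these comparisons. Bird ganglion cell axons are myelinated within the retina, and MBP, myelin basic protein, averaged 138 ± 18.3, 143 ± 28.96 and 138 ± 30.7 CPM.

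Markers of the other retinal cell types, given beside the ganglion cell genes because they share the same libraries, were called in both directions. The summed photoreceptor level was 1066 to 1324 CPM on day 1, 848 to 1152 CPM on day 3 and 1044 to 1301 CPM on day 6. Of 8 tested photoreceptor genes 2, GRK7 and CNGA3, fell between days 1 and 3, where 3.31% of all genes were called in either direction. Between days 3 and 6, 3 were called higher and 1 lower, beside 22.8% of all genes called. Between days 1 and 6, 3 were called higher and 3 lower, beside 24.3% of all genes called. Of 8 tested amacrine genes 2, SLC32A1 among them, fell between days 1 and 6, beside 494 of 11072 genes called lower. With median-of-ratios scaling 5 of the 8 were called lower there and 3 between days 3 and 6, beside 990 and 872 of 11069 genes called lower. Of 6 tested Muller glia genes SOX2 rose between days 3 and 6 (not called with median-of-ratios scaling, adjusted p = 0.0811) and CRYM fell between days 1 and 6. These calls stand beside 19.4% of all genes called higher between days 3 and 6 and 494 of 11072 called lower between days 1 and 6. The summed amacrine level was 753 to 962, 821 to 869 and 757 to 818 CPM, and the summed Muller glia level 893 to 1179, 940 to 1003 and 920 to 1195 CPM. Horizontal cells, which also carry neurofilament in some species, had summed levels of 375 to 426, 407 to 451 and 383 to 412 CPM, and of 7 tested genes CALB1 fell by 0.51 ± 0.10 (adjusted p = 0.00596) and NDRG1 rose by 0.47 ± 0.10 (adjusted p = 0.0110) between days 1 and 3. Bipolar cell genes summed to 409 to 488, 414 to 453 and 397 to 443 CPM, and smooth muscle and vessel genes to 51.6 to 63.4, 42.5 to 58.4 and 46.5 to 67.0 CPM. Of 6 tested bipolar genes 1 was called higher and 1 lower between days 3 and 6, beside 22.8% of all genes called. With median-of-ratios scaling 3 of these 6 were called lower between days 1 and 6, beside 990 of 11069 genes. The part of these cell types in the ganglion cell gene values was not tested.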

How the data were processed

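Retina RNA was made into libraries with a stranded, ribosomal RNA-depleted total RNA kit, per the labels' protocols. The submitters' processing notes name STAR, Partek and the build GRCg6a, with no role or version. The authors deposited 1 table of values normalized to CPM as far as the values show, with 0.0001 added to each, and the labels do not describe this step. In it 1 read is worth 0.0203 to 0.0324 CPM, and the listed genes hold 30.3 to 33.3% of the CPM scale. That share was 30.7 to 31.2% on day 1, 30.3 to 32.2% on day 3 and 31.7 to 33.3% on day 6. Its part in the differences between days was not tested. The 0.0001 was subtracted. Of the low values, 94.4 to 95.3% were whole numbers of reads within 0.1, so reads were estimated for description and no count model was run.

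limma 3.58.1 (R 4.3.3) was fitted to log2(CPM + 1) of all 21 libraries for the 11072 of 18631 genes averaging 1 CPM or more, with 18 residual degrees of freedom and Benjamini-Hochberg adjustment over all of them. It was tested on simulated data first. Ratios, and the ganglion cell genes as an alternative to limma, used exact permutation tests (scipy 1.17.1). The 10 genes and all lists were chosen with earlier results of these data known. The rule for naming list genes was at most 3 per list with the lowest adjusted p over the 3 days, or the most abundant gene where none was called. Genes named beyond this rule, such as CHRNB3, EBF3, NELL2, MAP1A, MAP1B, DCTN1, GAP43, KIF5C and NTRK2, were picked after their values were seen. Alternatives varied the pseudocount, filter, scaling, covariates, variance model and libraries. The sources used here do not say whether coordinates count from 0 or 1. Cell-type lists of pigment epithelium, microglia, vessel and red blood cell genes had 1, 2, 2 and 0 genes tested and 0 called in any comparison. Between pairs of days limma without a covariate called 3.31 to 24.3% of all genes. Some list genes are not reported here.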

Additional observations from a re-analysis of the deposited data

Results flagged for a closer look

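Of 39 groups of 7 libraries tested for a library apart from the rest of its day, 3 held one, and chance flags about 1 in 20 groups. RBPMS read 2.41 CPM in replicate 7 of day 3, above the other 6 libraries of that day. ISL2 read 1.52 CPM in replicate 6 of day 3, the highest of its day. NEFM read 35.5 CPM in replicate 7 of day 6, the highest of all 21 libraries. All 3 are libraries without W transcripts, and the NEFM library is the one that was highest of its day for 7 of the 10 genes.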

How the results depend on the processing

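Of the 9 tested genes, 2 were called between days 3 and 6. That count was 1 with a pseudocount of 5, a filter at 5 CPM, the W-linked level or the code number set as a covariate, an intensity trend with robust variance, or only the lower-numbered day 1 libraries. These fits called 2137 to 2844 of 7426 to 11080 genes tested. At 5 CPM only 4 of the ganglion cell genes were tested, and ISL2, at a mean of 1.12 CPM, was not among them. The ganglion cell gene called was POU4F1, except ISL2 with the lower-numbered day 1 libraries and THY1, with both original calls lost, under the W covariate. With only the higher-numbered day 1 libraries it was 2, POU4F1 and RBPMS, beside 2940 of 11060 genes. The count was 0 with no filter (10 ganglion cell genes tested), median-of-ratios scaling or the code letter as a covariate. Those fits called 2419 of 18629, 1818 of 11069 and 2430 of 11072 genes. It was also 0 with only libraries without W transcripts, where 90 of 11061 genes were called at all. With only W libraries day 3 is 1 library, so that fit is left out of these counts. Leaving out 1 library gave 0 to 3 calls, beside 1902 to 2918 of 11049 to 11078 genes. Between days 1 and 3 leaving out 1 gave 0 to 1, between days 1 and 6 0 to 1, and over any day 0 to 2. Of all genes, those fits called 262 to 382, 2217 to 2854 and 2755 to 3599 in these comparisons. With only the lower-numbered day 1 libraries, 1 was called between days 1 and 6 (main count 0) and 2 over any day (main count 1). That fit called 2881 and 3849 of 11080 genes. The any-day count was 0 with a pseudocount of 0.1, no filter, median-of-ratios scaling, either code covariate or only the higher-numbered day 1 libraries. Those fits called 2562 to 3280 of 11060 to 18629 genes over any day. The any-day count was also 0 with only libraries without W transcripts, where 211 of 11061 genes were called.

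Some uncalled log2 differences changed sign. Between days 1 and 3, with only W libraries, NEFL was 0.021 and SNCG -0.011. With only the higher-numbered day 1 libraries NEFH was 0.12 and THY1 0.092, and leaving out 1 library put NEFH at -0.092 to 0.043. Between days 3 and 6, without W libraries, RBPMS2 was 0.049 and SNCG 0.084. With only W libraries NEFL was -0.12 and SNCG 0.073, and with the W covariate SNCG was 0.041. Leaving out 1 library gave -0.12 to 0.015 for RBPMS2 and -0.084 to 0.043 for SNCG. Between days 1 and 6, RBPMS was -0.047 with median-of-ratios scaling, -0.12 without W libraries, -0.0099 with the lower-numbered day 1 libraries and -0.034 to 0.073 leaving out 1. POU4F1 was 0.0061 with the code number set, 0.052 without W libraries, 0.092 with the higher-numbered day 1 libraries and -0.046 to 0.034 leaving out 1, and NEFL was 0.012 without W libraries. Of the subunit ratios, NEFM to NEFL between days 1 and 6 was 0.013 with the higher-numbered day 1 libraries and -0.072 to 0.0087 leaving out 1. NEFH to NEFL was -0.094 between days 1 and 3 with the lower-numbered day 1 libraries, -0.022 to 0.28 leaving out 1, and -0.052 between days 3 and 6 without W libraries. NEFH to NEFM between days 3 and 6 was -0.066 with a pseudocount of 1, -0.27 without W libraries and -0.086 to 0.17 leaving out 1. The cause was not tested.

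The alternatives with only W libraries and with part of day 1 were chosen after seeing the data, and ratios were not run on W libraries alone. No paired analysis was possible because the labels give no number shared between days. ISL2, RBPMS, RBPMS2, NEFH and THY1 rest on 29 to 203 estimated reads per library, which limits their precision.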
